A study of Mus musculus with 12 samples.

Results

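The nuclear genes of oxidative phosphorylation were followed in mouse embryoid bodies that carried or lacked the histone acetyltransferase Gcn5, at day 3 and day 5 of differentiation. Members were the protein-coding genes whose symbols follow the naming of the respiratory chain and ATP synthase: Nduf genes of complex I, Sdha to Sdhd of complex II, Uqcr genes and Cyc1 of complex III, Cox4 to Cox8 genes of complex IV, and Atp5 genes of complex V. By this rule 91 of the 18269 genes in the deposited table were members, of 95 such genes in the annotation. Cox6a2, Cox8b, Cox8c and an additional Atp5o identifier were not analysed here. The 91 comprised 44 genes of complex I (29 accessory subunits, 8 assembly factors and 7 core subunits), 4 of complex II, 9 of complex III, 17 of complex IV and 17 of complex V. Of these, 5 lie on chromosome 11, and 90 had a mean value high enough to be tested. The one left untested was Cox7b2, a testis isoform of complex IV.

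Total RNA of embryoid bodies was sequenced in 12 libraries, 3 for each of 4 groups. The null groups came from line 4C2, which is Gcn5-/-, at day 5 and at day 3. The floxed groups came from line 4_1, which is Gcn5 fx/fx and still carries the gene, at the same 2 days. Both lines are of C57BL/6 origin, and no compound or growth factor distinguishes the groups. Each genotype is represented by 1 line, so genotype and line cannot be told apart. The series text speaks of duplicates whereas 3 libraries are listed per group, and nothing says that they came from separate cultures, so p-values measure only the spread between these libraries, which may be technical.

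As background, complexes I to IV pass electrons from NADH and succinate to oxygen, and all of them but complex II pump protons out of the mitochondrial matrix. Complex V (ATP synthase) uses the returning protons to make ATP. Most subunits are encoded in the nucleus and imported, while a small core is encoded by mitochondrial DNA. Genes of this family are known targets of the factors NRF1 (nuclear respiratory factor) and GABP, an ETS factor. Pluripotent stem cells are known to rely strongly on glycolysis, and several complex IV subunits exist as pairs of a widely expressed form and a form restricted to a tissue or to low oxygen.

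The libraries held 18022071 to 26803369 reads in genes in the null line and 23090915 to 29446068 in the floxed line, and the members took 0.920% to 1.21% of them. Values below are the authors' normalised read counts, that is, reads in a gene divided by the library's size factor, which do not correct for gene length. Kat2a, which encodes Gcn5, had values of 614 to 860.2 in the 6 null libraries, against 2071 to 2391 in the 6 floxed libraries. On the log2(value + 1) scale its difference was −1.43 ± 0.11 at day 5 and −1.68 ± 0.11 at day 3 (SE, limma, adjusted p = 1.6e-05 and 1.01e-05). The files hold 1 value per gene, so reads of the deleted exons cannot be told apart from reads of the others. The first null library at day 5 stood lower over the members than the others of its group: its median deviation from the members' own means was −0.27 on the log2 scale, against −0.09 and −0.10 in the other 2. None of the 13 protein-coding genes of mitochondrial DNA was in the table, and they were not analysed here.

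Promoter windows were read for the members because the results below turn on genes that moved together and on pairs of isoforms that did not. RefSeq (GRCm38.p6) gave 80 windows, each the 250 bases before an annotated start, for 75 of the members. The NRF1 letters (GCGCA, any base, GCGC), on either strand, were in 15 of the 80 windows (18.8%), against 3.74% of 32851 windows of all genes. The ETS letters CCGGAAG were in 17.5% of the members' windows, against 6.91% of all windows. The E-box CACGTG was in 8.75% against 6.02%, and the YY1 letters AAGATGGC were in 1 of 80 windows, against 1.56%. The short HIF core (ACGTG or GCGTG, which every CACGTG contains) was in 53.8% against 38.6%. A match describes letters only. The following windows run 5′ to 3′ along the gene and end at the base before the start, with the NRF1, ETS and E-box letters of either strand in capitals and the HIF core unmarked. Sdhd, Ndufs6 and Atp5l are examples with such letters among the 41 members that fell at day 5 in both lines. The windows of Ndufs8, Cox7c, Atp5b and Ndufv3, whose falls are described below, hold no NRF1, ETS or E-box letters. A tie between these letters and the falls was not tested. Ndufaf4 and Ndufaf8 are assembly factors that differed between the lines in opposite directions at day 5. In the pair of Cox7a1 and Cox7a2, the muscle form was called between the lines at day 5 and the other was not.
Sdhd, chr9:50603850-50604099, minus strand: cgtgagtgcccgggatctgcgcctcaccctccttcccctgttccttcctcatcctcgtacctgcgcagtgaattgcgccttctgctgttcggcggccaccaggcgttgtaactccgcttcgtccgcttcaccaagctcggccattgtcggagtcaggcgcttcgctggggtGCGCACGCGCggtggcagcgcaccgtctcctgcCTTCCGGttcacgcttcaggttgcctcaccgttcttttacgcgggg
Ndufs6, chr13:73328483-73328732, minus strand: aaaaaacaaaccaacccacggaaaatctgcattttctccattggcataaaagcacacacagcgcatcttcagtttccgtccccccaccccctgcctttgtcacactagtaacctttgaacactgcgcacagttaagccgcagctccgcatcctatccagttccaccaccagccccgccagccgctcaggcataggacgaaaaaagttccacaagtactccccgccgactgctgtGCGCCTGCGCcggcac
Atp5l, chr9:44920743-44920992, minus strand: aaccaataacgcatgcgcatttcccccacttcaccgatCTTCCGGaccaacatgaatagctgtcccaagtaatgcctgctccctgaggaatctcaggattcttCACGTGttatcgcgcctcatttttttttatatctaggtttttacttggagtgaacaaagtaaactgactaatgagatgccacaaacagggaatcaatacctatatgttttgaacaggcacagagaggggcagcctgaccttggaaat
Ndufaf4, chr4:24897833-24898082, plus strand: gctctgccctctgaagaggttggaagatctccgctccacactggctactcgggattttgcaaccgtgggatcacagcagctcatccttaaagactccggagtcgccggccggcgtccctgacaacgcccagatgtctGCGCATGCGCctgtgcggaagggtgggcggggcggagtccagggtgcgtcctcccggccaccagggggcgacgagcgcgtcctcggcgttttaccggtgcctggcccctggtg
Ndufaf8, chr11:120098684-120098933, plus strand: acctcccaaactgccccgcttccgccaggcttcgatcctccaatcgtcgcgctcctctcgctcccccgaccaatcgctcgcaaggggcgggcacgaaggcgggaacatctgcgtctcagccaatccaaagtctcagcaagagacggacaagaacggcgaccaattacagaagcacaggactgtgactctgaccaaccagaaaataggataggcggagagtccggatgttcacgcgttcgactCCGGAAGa
Cox7a1, chr7:30183921-30184170, plus strand: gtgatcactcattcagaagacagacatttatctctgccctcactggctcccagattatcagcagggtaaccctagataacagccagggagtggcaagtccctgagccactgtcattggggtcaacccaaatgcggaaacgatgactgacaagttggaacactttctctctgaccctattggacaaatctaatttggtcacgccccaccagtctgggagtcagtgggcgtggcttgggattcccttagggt
Cox7a2, chr9:79759854-79760103, minus strand: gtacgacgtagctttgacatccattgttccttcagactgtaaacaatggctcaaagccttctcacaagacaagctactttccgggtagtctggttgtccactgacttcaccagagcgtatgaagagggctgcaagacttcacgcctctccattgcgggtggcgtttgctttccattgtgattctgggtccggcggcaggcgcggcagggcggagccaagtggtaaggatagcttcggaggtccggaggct
Measured from the start, the NRF1 letters began at −79 in Sdhd, −16 in Ndufs6 and −113 in Ndufaf4. The ETS letters began at −46 in Sdhd, −212 in Atp5l and −8 in Ndufaf8, and the E-box of Atp5l began at −147. Neither window of the Cox7a1 and Cox7a2 pair held any of the capitalised motifs.

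Levels spanned about 3 orders of magnitude. Divided by exon length, the mean over all 12 libraries was highest for Atp5a1, the alpha subunit of the ATP synthase head, at 8748 per kilobase, followed by Atp5b, its beta subunit, at 8617 and by Cox8a of complex IV at 6784 per kilobase. Within the other complexes the highest levels per kilobase were 3728 for Uqcr10, 2898 for Sdhd and 2343 for Ndufa2. The median level per kilobase was 728 over complex I, 1256 over complex II, 1795 over complex III, 2193 over complex IV and 1670.0 over complex V, so complex I genes, which include the assembly factors, were the lowest set. The lowest members per kilobase were Cox7b2 (8.08), Cox4i2 (20.9), Ndufb2 (38.7) and Atp5s (80.6). Exon length counts every annotated exon base of a gene, so levels and ranks per kilobase depend on the annotation. Ndufb2, for example, has 5628 such bases for a coding length of 315. Cox7b2 had values of 4.52, 2.33 and 3.57 in null day 5 libraries, against 3.18, 1.68 and 0.873 in floxed day 5 libraries. Its day 3 values were 6.11, 6.69 and 10.7 in null libraries, against 6.78, 4.29 and 1.81 in floxed libraries. Among all members, 69 had a mean value of at least 1000.

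**Figure D1:**
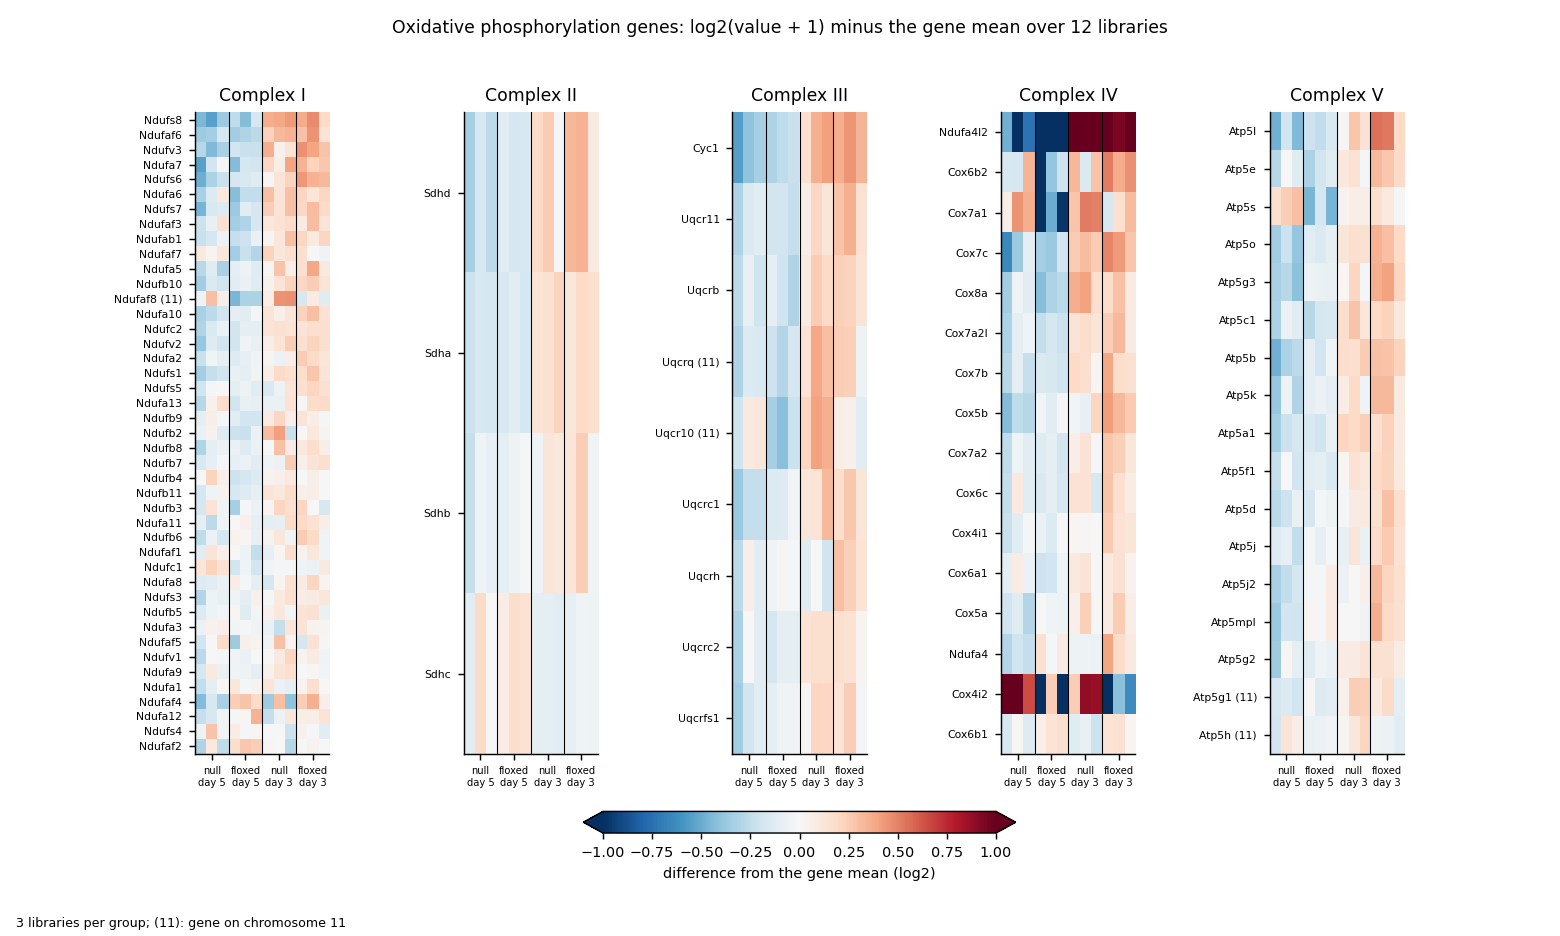
Deviation of each tested member but 1 (rows, 1 panel per complex, colour scale ending at ±1) from its own mean over the 12 libraries on the log2(value + 1) scale, with the libraries in columns by group. The day 3 columns are mostly above and the day 5 columns mostly below the member means, and the first null day 5 library is the lowest of its group.

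Between day 3 and day 5 most of the family fell, modestly and in both lines. Summed over the 91 members, the normalised count was 203344, 230033 and 227690 in null day 5 libraries and 271755, 280896 and 281322 in null day 3 libraries. In the floxed line the sums were 231559, 230979 and 239161 at day 5 and 293933, 296615 and 274922 at day 3. Every day 5 sum lay below every day 3 sum of the same line. In bulk samples, fewer cells of a type and less RNA per cell cannot be told apart.

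In the null line 48 of the 90 members tested fell by day 5 and none rose (53.3% of members, against 21.9% of all 17000 genes called lower and 22.6% called higher, limma on log2(value + 1), adjusted p under 0.05). In the floxed line 55 fell and none rose (61.1%, against 19.2% of all genes called lower and 22.5% called higher). At an unadjusted p under 0.05, limma had 1 member higher in each line, and edgeR called 1 higher after adjustment in the null line and 0 in the floxed line. Among genes with a mean of at least 1000, the share called lower was 33.6% in the null line and 24.1% in the floxed line. The median log2 difference of the members was −0.23 in the null line and −0.27 in the floxed line, and that of all genes was 0.00 in both. The lines shared 41 of the falls, which is 85.4% of the null line's and 74.5% of the floxed line's, and they use no library in common. Across the 90 members, which are not independent, the differences of the 2 lines had a Pearson r of 0.84 and a Spearman rho of 0.68, and r was 0.58 without Ndufa4l2. Without the first null day 5 library the null line had 37 falls, a median of −0.18 and 1 rise, that of Sdhc.

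In complex I, the entry point of electrons from NADH, 17 of 44 genes fell in the null line and 19 of 44 in the floxed line, with 5 of 7 core subunits in the null line and 4 of 7 in the floxed line. Ndufs8, a core subunit that holds iron-sulfur clusters, had values of 797, 747 and 849 in null day 5 libraries, against 1404, 1424 and 1466 in null day 3 libraries. In floxed embryoid bodies it had 912, 807 and 972 at day 5, against 1411, 1512 and 1245 at day 3. The groups did not overlap in either line, and the log2 difference was −0.85 ± 0.09 in the null line and −0.63 ± 0.09 in the floxed line (SE, limma, adjusted p = 2.13e-05 and 0.000174).
Ndufv3, an accessory subunit of the NADH-oxidising arm, averaged 1036 ± 57.1 at day 5 and 1501 ± 174 at day 3 in the null line, and 1138 ± 13.4 at day 5 and 1716 ± 103 at day 3 in the floxed line (SD, n = 3 each). Its log2 difference was −0.53 ± 0.09 in the null line and −0.59 in the floxed line. Assembly factors help to build complex I without staying in it, and 1 of 8 fell in the null line and 3 of 8 in the floxed line. The one that fell in the null line was Ndufaf6, with 251, 254 and 287 at day 5 against 379, 404 and 410.4 at day 3. Its floxed-line values were 252, 261 and 267 at day 5 against 394, 439.7 and 354 at day 3, again without overlap (log2 difference −0.59 ± 0.11 in the null line and −0.60 ± 0.11 in the floxed line, adjusted p = 0.000832 and 0.000803 by limma).

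In complex II, which also belongs to the citric acid cycle, 2 of 4 genes fell in each line. Sdha, the flavoprotein, had 5305, 5501 and 5443 in null day 5 libraries against 6752, 6846 and 7190.3 in null day 3 libraries. Its floxed values were 5503, 5689 and 5450.0 at day 5 against 6643, 7041 and 6914 at day 3. The days did not overlap in either line. Sdhd, a membrane anchor, had 2799, 3157 and 2934 at day 5 against 4014, 4197 and 3505 at day 3 in the null line. For the floxed line the values were 3248, 3143 and 3145 at day 5 against 4433, 4483 and 3758 at day 3. Both genes were lower in every day 5 library than in every day 3 library of their line, with log2 differences of −0.35 ± 0.05 for Sdha and −0.40 ± 0.09 for Sdhd in the null line (adjusted p = 0.000225 and 0.00237, limma). The floxed-line differences were −0.31 ± 0.05 for Sdha and −0.41 ± 0.09 for Sdhd (adjusted p = 0.000639 and 0.00214, limma).
Sdhb, the iron-sulfur subunit, averaged 2081 ± 137 at day 5 and 2360.2 ± 143 at day 3 in the null line (SD, n = 3) and did not pass the test (adjusted p = 0.0876 by limma). Its floxed-line means were 2177 ± 50.7 at day 5 and 2445 ± 234 at day 3, with an adjusted p of 0.128 by limma that became 0.0381 without the third floxed day 3 library. Sdhc, the other membrane anchor, stood apart in sign, with 2093, 2571 and 2254 in null day 5 libraries against 2105, 2102 and 2078 in null day 3 libraries, which overlapped. Floxed embryoid bodies had 2373, 2542 and 2495 at day 5 against 2133, 2194 and 2178 at day 3, which did not. Its log2 difference of 0.13 ± 0.07 in the null line missed the threshold (adjusted p = 0.16, limma, and 0.0431 without the first null day 5 library), as did 0.19 ± 0.07 in the floxed line (adjusted p = 0.0573). By limma the floxed value passed when only the 2 floxed groups entered the fit (adjusted p = 0.0403) or when the first or the second null day 5 library was left out (0.0345 and 0.0303).

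In complex III, which passes electrons from ubiquinol to cytochrome c, 8 of 9 genes fell in each line. Cyc1, the heme-bearing cytochrome c1, had 2310.3, 2563 and 2683 in null day 5 libraries against 3803, 4338 and 4486 in null day 3 libraries. In the floxed line it had 2735, 2831 and 2895 at day 5 against 4355, 4587 and 4289.8 at day 3. No day 5 library came within 1000 of a day 3 library of its line. The log2 difference was −0.74 ± 0.08 in the null line and −0.64 ± 0.08 in the floxed line (SE, limma, adjusted p = 1.43e-05 and 3.47e-05).

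In complex IV, the oxidase, 8 of 16 genes fell in the null line and 12 of 16 in the floxed line, and among the 11 widely expressed subunits 6 and 8 fell. Cox7c had 2362, 2844 and 3470.1 in null day 5 libraries against 4398, 4571 and 4385 in null day 3 libraries. Its floxed values were 2909, 2847 and 3223 at day 5 against 5183, 4962 and 4463 at day 3. The null day 5 libraries spread widely but remained below all day 3 libraries (log2 difference −0.64 ± 0.11 in the null line and −0.70 ± 0.11 in the floxed line, adjusted p = 0.000599 and 0.000319 by limma). Cox8a fell by 0.48 in the null line and by 0.52 in the floxed line on the log2 scale, and Cox7b by 0.33 in the null line. Cox7a2l, a factor in joining complexes into supercomplexes, averaged 3464 ± 341 at day 5 and 4231 ± 88.6 at day 3 in the null line (SD, n = 3 each).

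In complex V, 13 of 17 genes fell in the null line and 14 of 17 in the floxed line. Atp5b, the catalytic beta subunit, had 25795, 28898 and 29955 in null day 5 libraries against 40524, 40418 and 42889 in null day 3 libraries. In floxed libraries it had 33575, 31461 and 34874 at day 5 against 44013, 43766 and 41951 at day 3. The groups were apart in both lines, with a log2 difference of −0.55 ± 0.07 in the null line and −0.38 ± 0.07 in the floxed line (adjusted p = 6.13e-05 and 0.000916, limma).
Atp5l, subunit g of the membrane part, had 1499, 1835 and 1545 in null day 5 libraries against 2108, 2544 and 2316 in null day 3 libraries. For the floxed line the values were 1816, 1766 and 1889 at day 5 against 3064, 3014 and 2409.7 at day 3. Without overlap in either line, it fell by 0.52 ± 0.11 in the null line and by 0.63 ± 0.11 in the floxed line on the log2 scale (adjusted p = 0.00176 and 0.000489 by limma). Atp5l has 8 near-identical copies in the genome (at least 95% identity over at least 80% of the coding length), so reads may have been split in the authors' counting. The named falls of Ndufs8, Cyc1, Cox7c, Ndufaf6, Ndufv3, Atp5b and Atp5l passed the threshold under all 21 alternatives in both lines.

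**Figure D2:**
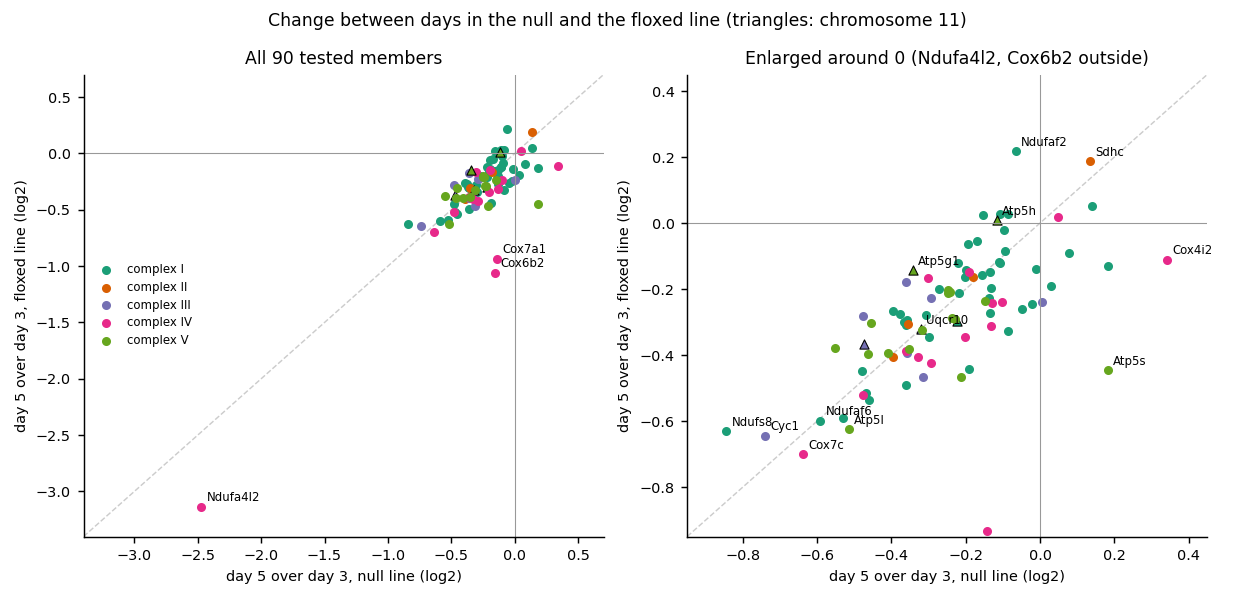
Log2 difference of day 5 against day 3 for each tested member in the null line (horizontal axis) and the floxed line (vertical axis), coloured by complex, with all members on the left and the range around 0 enlarged on the right. Most points lie below 0 on both axes, and Ndufa4l2 lies far from the others at −2.47 in the null line and −3.14 in the floxed line.

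Marker lists changed over the same days, and their part in the members' difference was not tested. Beside the counts below, 22.6% of all genes were called higher and 21.9% lower in the null line, and 22.5% and 19.2% in the floxed line. In the null line the 10 pluripotency markers summed to 19240 to 21377 at day 5 and 38900 to 53524 at day 3, with 6 lower and 1 higher. Floxed libraries summed to 30226 to 37952 at day 5 and 48858 to 61351 at day 3, with 6 lower and 3 higher. The pluripotency sums were thus lower at day 5 in every library of both lines. Germ layer markers (15 tested) summed to 3413 to 4797 at day 5 and 1238 to 1924 at day 3 in the null line, with 10 higher and 2 lower. Their floxed sums were 5690 to 8415 at day 5 and 1974 to 4392 at day 3, with 10 higher and 1 lower. The germ layer sums were higher at day 5 in every library. Extraembryonic endoderm markers (10) summed to 24876 to 32728 at day 5 and 13690 to 17769 at day 3 in the null line, with 7 higher and 1 lower. In the floxed line they summed to 25535 to 37439 at day 5 and 19426 to 23211 at day 3, with 9 higher and 1 lower. Feeder fibroblast markers, 12 tested of 13 in the table, were also higher in sum at day 5. The presence of feeder cells was not tested. These markers summed to 4401 to 5825 at day 5 and 899 to 1818 at day 3 in the null line, with 7 higher and 2 lower. Floxed libraries summed to 3552 to 9493 at day 5 and 1691 to 3036 at day 3, with 8 higher and 1 lower, while Twist2 stayed below a value of 10.

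The null line was compared with the floxed line at each day. At day 5, 9 of the 90 members were higher in the null line and 11 were lower. Of all genes, 13.0% were called higher and 13.5% lower, and of genes with a mean of at least 1000, 12.5% were called higher and 23.3% lower. The median difference was −0.04 on the log2 scale for the members and −0.02 for all genes. The summed value was 220355 ± 14779 in null day 5 libraries and 233899 ± 4566 in floxed day 5 libraries (SD, n = 3 each). The 2 ranges lay next to each other, with a highest null sum of 230033 and a lowest floxed sum of 230979.

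The 9 members higher in the null line were the isoforms Cox4i2, Ndufa4l2 and Cox7a1, described below, the assembly factors Ndufaf7 and Ndufaf8, the complex I accessory subunits Ndufb4 and Ndufc1, Uqcr10 of complex III and Atp5s. Ndufaf7, a methyltransferase needed for complex I assembly, had 668, 635 and 673 in null day 5 libraries against 493, 534 and 507 in floxed day 5 libraries. Atp5s, a coupling factor of ATP synthase, had 182, 192 and 199.7 in null day 5 libraries against 118, 143 and 117 in floxed day 5 libraries. The groups did not overlap for either gene, and the log2 difference was 0.37 ± 0.08 for Ndufaf7 and 0.60 ± 0.13 for Atp5s (adjusted p = 0.0076 and 0.00551, limma).
Ndufc1, an accessory subunit of complex I, averaged 1034 ± 39.9 in null and 842 ± 47.5 in floxed day 5 libraries, and Ndufb4, another, 911 ± 72.9 in null and 758 ± 19.1 in floxed day 5 libraries (SD, n = 3 each). Their log2 differences were 0.30 ± 0.07 for Ndufc1 and 0.26 ± 0.08 for Ndufb4 (adjusted p = 0.012 and 0.0236, limma). The call for Ndufb4 was lost when only the day 5 groups entered the limma fit (adjusted p = 0.0622) and without the first floxed, second floxed or second null day 5 library (0.0721, 0.0536 and 0.104).

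Among the lower members, complex V contributed 5 of its 17 genes and complex IV 3 of 16. Atp5j2, subunit f, had 1981, 2094 and 2199 in null day 5 libraries against 2465, 2461 and 2633 in floxed day 5 libraries. Atp5g3, 1 of 3 genes for the same mature subunit c of the membrane ring, had 4285, 4447 and 4053 in null against 5184, 5136 and 5099.9 in floxed day 5 libraries. Neither gene's groups overlapped, with log2 differences of −0.27 ± 0.07 for each (adjusted p = 0.0122 for Atp5j2 and 0.017 for Atp5g3, limma, the call for Atp5g3 being lost without the third null day 5 library, −0.24 and 0.0641).
Atp5mpl, a small membrane-part protein, averaged 1217 ± 83.0 in null and 1480.2 ± 55.2 in floxed day 5 libraries. Its log2 difference of −0.28 ± 0.08 (adjusted p = 0.0163, limma) missed the threshold without the third floxed (0.0585) or the first null day 5 library (0.0611). Atp5b differed by −0.24 ± 0.07 (adjusted p = 0.0237, limma, but 0.0768 with the day 5 groups alone, and 0.0632, 0.0878 and 0.0762 without the first floxed, the third floxed or first null library). Cox5b, a subunit of the oxidase that binds zinc, averaged 2741 ± 174 in null and 3312 ± 103 in floxed day 5 libraries. Its difference was −0.27 ± 0.08 (adjusted p = 0.0273, limma, but 0.0749, 0.0753, 0.0948 and 0.0505 without the first floxed, the third floxed, first null or the third null library).

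Of the 8 assembly factors of complex I, Ndufaf4 and Ndufaf2 were lower. Ndufaf4 had 497, 601 and 536 in null day 5 libraries against 796, 818 and 766 in floxed day 5 libraries, which did not overlap. Its log2 difference of −0.54 ± 0.16 (adjusted p = 0.0237, limma) missed the threshold without the first floxed, second floxed, first null or the third null library (0.0602, 0.0587, 0.0771 and 0.0613). Ndufaf2 had 223, 294 and 230.0 in null against 311, 331 and 326 in floxed day 5 libraries (−0.39 ± 0.13, adjusted p = 0.043, limma).
The call for Ndufaf2 was lost under upper-quartile scaling (0.0591), TMM scaling (0.0511), the day 5 groups alone (0.0797) and edgeR (0.0593). It was also lost without any of 8 libraries: the 3 floxed day 3 libraries (0.0584, 0.0568 and 0.0519), the 3 floxed day 5 libraries (0.0746, 0.0971 and 0.097) and the first and the third null day 5 libraries (0.135 and 0.129). Its exons overlap B230220B15Rik on the opposite strand over 65.6% of their length, and the use of strand in counting is not given in the sources used here. None of the 7 core subunits of complex I and none of the 4 Sdh genes passed the test at day 5, and Cyc1 had a log2 difference of −0.17 (adjusted p = 0.128 by limma).

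The count of 11 lower members depended on single libraries: it was 4, 7 and 4 without the first, second or the third floxed day 5 library and 3 and 5 without the first or the third null day 5 library. It was 7 under upper-quartile scaling and 6 when only the day 5 groups entered the fit, but 15 with the replicate block and 14 with the median of chromosome 11 removed. The 9 higher members numbered 10 with the block and 7 with that median removed.

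**Figure D3:**
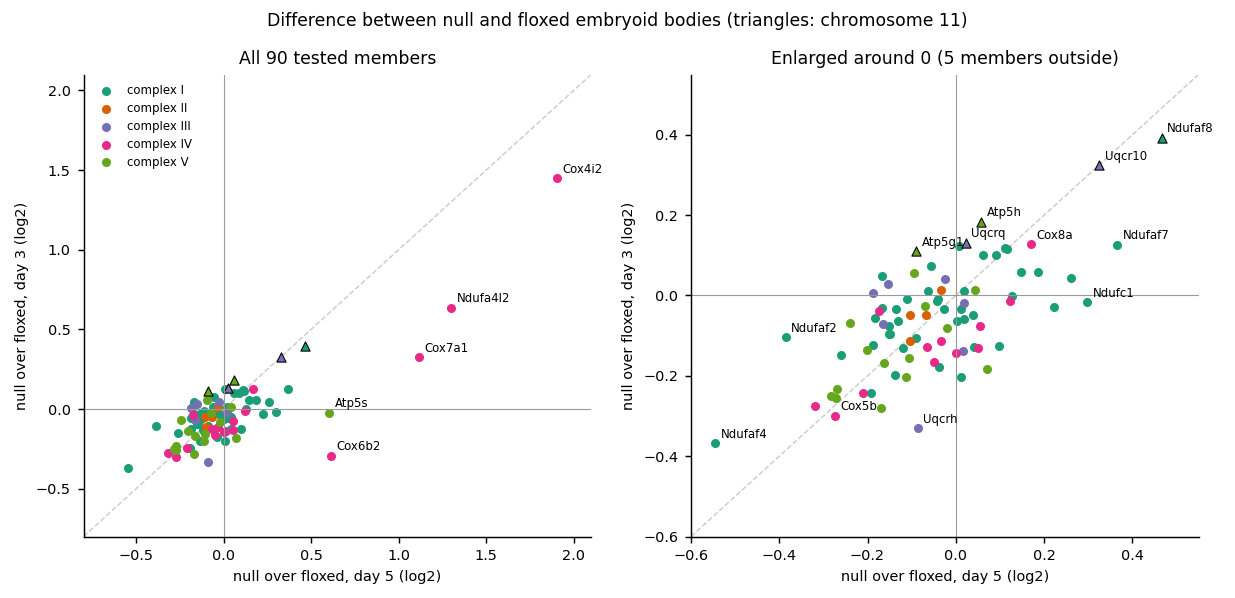
Log2 difference of null against floxed for each tested member at day 5 (horizontal axis) and day 3 (vertical axis), coloured by complex, with all members on the left and the range around 0 enlarged on the right. Most members lie close to 0 on both axes, and Cox4i2, Ndufa4l2 and Cox7a1 lie furthest to the right with 1.90, 1.30 and 1.12.

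At day 3, 1 member was lower in the null line and none was higher (background 2.03% lower and 4.09% higher of all genes). It was Uqcrh, the hinge protein of complex III, with 2863, 3105 and 2705 in null day 3 libraries against 3829, 3659 and 3412 in floxed day 3 libraries. These did not overlap, with a log2 difference of −0.33 ± 0.08 (adjusted p = 0.0365, limma). The call was lost with genes of chromosome 11 left out (0.0583) or their median removed (0.0558). It was also lost without the first floxed, second floxed, first null or the third null day 3 library (0.138, 0.101, 0.0878 and 0.132). At day 5 Uqcrh had a log2 difference of −0.09 (adjusted p = 0.49, limma).
The replicate number, as a block, covered all 12 libraries, including the floxed days, which were not taken as paired. With this block, 3 members were higher and 6 lower at day 3. Those named here were Cox4i2 (adjusted p = 0.0289), Ndufaf8 (0.0353), Uqcr10 (0.0385), Ndufa4 (0.0348) and Cox6b1 (0.027), all by limma. Without a block the count of lower members was 0 without the first or second floxed day 3 library or the first null day 3 library, 4 without the third floxed, 3 without the second null day 3 library and 2 without the first null day 5 library. A higher member appeared without the second floxed or the first null day 5 library (1 each). At an unadjusted p under 0.05, 5 members were higher and 17 lower by limma, and edgeR called 0 higher and 1 lower after adjustment. The members' median was −0.05, with 62 of 90 below 0.

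The interaction test asks whether the difference between the lines changed between the days, and no member passed it (0.247% of all genes were called higher and 0.229% lower). By limma 4 members were higher and 0 lower at an unadjusted p under 0.05, and edgeR called none after adjustment and 8 before it. The greatest interaction estimates, on the log2 scale, were 0.91 ± 0.34 for Cox6b2, 0.79 ± 0.28 for Cox7a1 and 0.66 ± 0.36 for Ndufa4l2 (SE, limma, adjusted p = 0.246, 0.223 and 0.428). A fall over time found in only one line was therefore not shown to differ between the lines.

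Of the 4 tissue- or oxygen-restricted isoforms of complex IV tested at day 5, 3 were higher in the null line and all 4 had positive log2 differences, with a median of 1.21. Of the 11 widely expressed subunits 0 were higher and 3 were lower. The shares over all genes were 13.0% higher and 13.5% lower, and 12.5% and 23.3% among genes with a mean of at least 1000. Ndufa4l2, the relative of Ndufa4 known to be induced under low oxygen, had 79.1, 53.6 and 66 in null day 5 libraries, against 24.7, 36.9 and 19.2 in floxed day 5 libraries. At day 3 the values were 495, 304 and 329.9 in null libraries, against 264, 213 and 233 in floxed libraries. The null line was higher in every library at both days, and both lines were far lower at day 5. The log2 difference of null against floxed was 1.30 ± 0.25 at day 5 (2.46-fold, adjusted p = 0.00296, limma) and 0.64 ± 0.25 at day 3 (adjusted p = 0.155). Day 5 against day 3 it was −2.47 ± 0.25 in the null line and −3.14 ± 0.25 in the floxed line (adjusted p = 1.25e-05 and 2.41e-06, limma), the greatest fall of any member in both.
Ndufa4, first named as a complex I subunit and now assigned to complex IV, had 2329, 2483 and 2415 in null day 5 libraries, against 3172, 2820.5 and 3035 in floxed day 5 libraries. At day 3 it had 2762, 2751 and 2744 in null libraries, against 3747, 3241 and 3042 in floxed libraries. It was lower in every null library than in every floxed library of its day, with a log2 difference of −0.32 ± 0.08 at day 5 (adjusted p = 0.0101, limma) and −0.28 ± 0.08 at day 3 (0.0554, or 0.0348 with the replicate block and 0.035 without the third floxed day 3 library). Per exon length, Ndufa4l2 made up 3.36% ± 0.729 of the pair in null day 5 libraries, 1.13% ± 0.437 in floxed day 5 libraries, 14.6% ± 3.35 in null day 3 libraries and 8.22% ± 0.574 in floxed day 3 libraries (SD, n = 3 each).

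Cox4i2, the oxygen-responsive form of subunit 4 known from the lung, was low throughout, with 29.4, 33.8 and 21.4 in null day 5 libraries, against 3.98, 15.9 and 4.36 in floxed day 5 libraries. Its day 3 values were 15.9, 25.4 and 25.0 in null libraries, against 4.84, 9.65 and 8.16 in floxed libraries. All null libraries lay above all floxed libraries of their day. The log2 difference was 1.90 ± 0.46 at day 5 (adjusted p = 0.00939, limma) and 1.45 ± 0.46 at day 3 (0.0809, or 0.0289 with the replicate block and 0.0313 without the second floxed day 5 library). At these levels the size depends on the pseudocount, and with 10 in place of 1 it was 1.13 at day 5 and 0.87 at day 3. Its counterpart Cox4i1 had log2 differences of −0.05 at day 5 and −0.17 ± 0.07 at day 3 (adjusted p = 0.169 at day 3, limma). Of the pair, Cox4i2 made up 0.990% ± 0.257 in null and 0.280% ± 0.246 in floxed day 5 libraries per exon length (SD, n = 3 each).

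Cox7a1, the form of subunit 7a of heart and skeletal muscle, had 103, 135 and 127 in null day 5 libraries, against 48.5, 69.5 and 49.8 in floxed day 5 libraries. At day 3 the values were 119.8, 142 and 140.4 in null libraries, against 88.1, 110.5 and 123 in floxed libraries. The lines were separate at day 5 and overlapped at day 3. The log2 difference of null against floxed was 1.12 ± 0.20 at day 5 (2.17-fold, adjusted p = 0.00178, limma) and 0.33 ± 0.20 at day 3 (0.358). Over time Cox7a1 fell in the floxed line by 0.93 ± 0.20 on the log2 scale (adjusted p = 0.00221, limma), against a difference of −0.14 in the null line that did not pass (0.592). Its counterpart Cox7a2 averaged 3119 ± 233 in null and 3113 ± 98.6 in floxed day 5 libraries (SD, n = 3 each, log2 difference 0.00). Of the pair, per exon length, Cox7a1 made up 6.43% ± 0.406 in null and 3.06% ± 0.555 in floxed day 5 libraries, and 6.20% ± 0.643 in null and 4.59% ± 0.963 in floxed day 3 libraries.
Cox6b2, the testis form of subunit 6b, had 200.1, 199 and 283 in null day 5 libraries, against 94.7, 171 and 194 in floxed day 5 libraries. At day 3 it had 282, 202 and 273 in null libraries, against 320.4, 291 and 308 in floxed libraries. The floxed line fell by 1.06 ± 0.24 on the log2 scale between the days (adjusted p = 0.00327, limma), and the null line had a difference of −0.15 (0.634). The difference between the lines at day 5, 0.61 ± 0.24, missed the threshold (0.076) but passed with the replicate block (0.0441) and without the third floxed day 5 library (0.81, adjusted p = 0.0359, limma). Its counterpart Cox6b1 was lower in the null line at day 5, with 2688 ± 184 in null against 3106 ± 100.3 in floxed libraries (−0.21 ± 0.07, adjusted p = 0.0416, limma).
That call for Cox6b1 was lost under upper-quartile scaling (0.0722), TMM (0.0532), the day 5 groups alone (0.0678) and edgeR (0.0554), and without any of the first and second floxed day 3 libraries (0.0549 and 0.0527), the 3 floxed day 5 libraries (0.0576, 0.0955 and 0.115) or the first and the third null day 5 libraries (0.124 and 0.118). The day 5 calls for Cox4i2, Ndufa4l2, Cox7a1, Ndufa4, Atp5s, Ndufaf7, Ndufc1 and Atp5j2 passed under all 21 alternatives.

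Over time, 3 of the widely expressed counterparts changed by small amounts. Cox7a2 fell by 0.35 ± 0.07 on the log2 scale in the floxed line (adjusted p = 0.00225, limma) and by 0.20 ± 0.07 in the null line (0.04). The null-line call was lost under upper-quartile scaling (0.0504), TMM (0.0543), edgeR (0.0607), the null groups alone (0.0779), and without the second floxed day 3 library (0.0517), the first or second null day 3 library (0.0844 and 0.14) or the first or the third null day 5 library (0.148 and 0.0644). Cox4i1 fell in the floxed line by 0.24 ± 0.07 (0.0111, but 0.0591 without the first floxed day 3 and 0.0501 without the second floxed day 5 library). Cox6a1 also fell in the floxed line, by 0.24 ± 0.07 (0.0174, but 0.0714, 0.0638 and 0.0612 without the second floxed day 3, first floxed day 5 or second floxed day 5 library). Ndufa4 had −0.19 ± 0.08 in the null line (0.0599, or 0.0472 with the replicate block, and 0.0319 and 0.0448 without the first or the third floxed day 3 library).

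**Figure D4:**
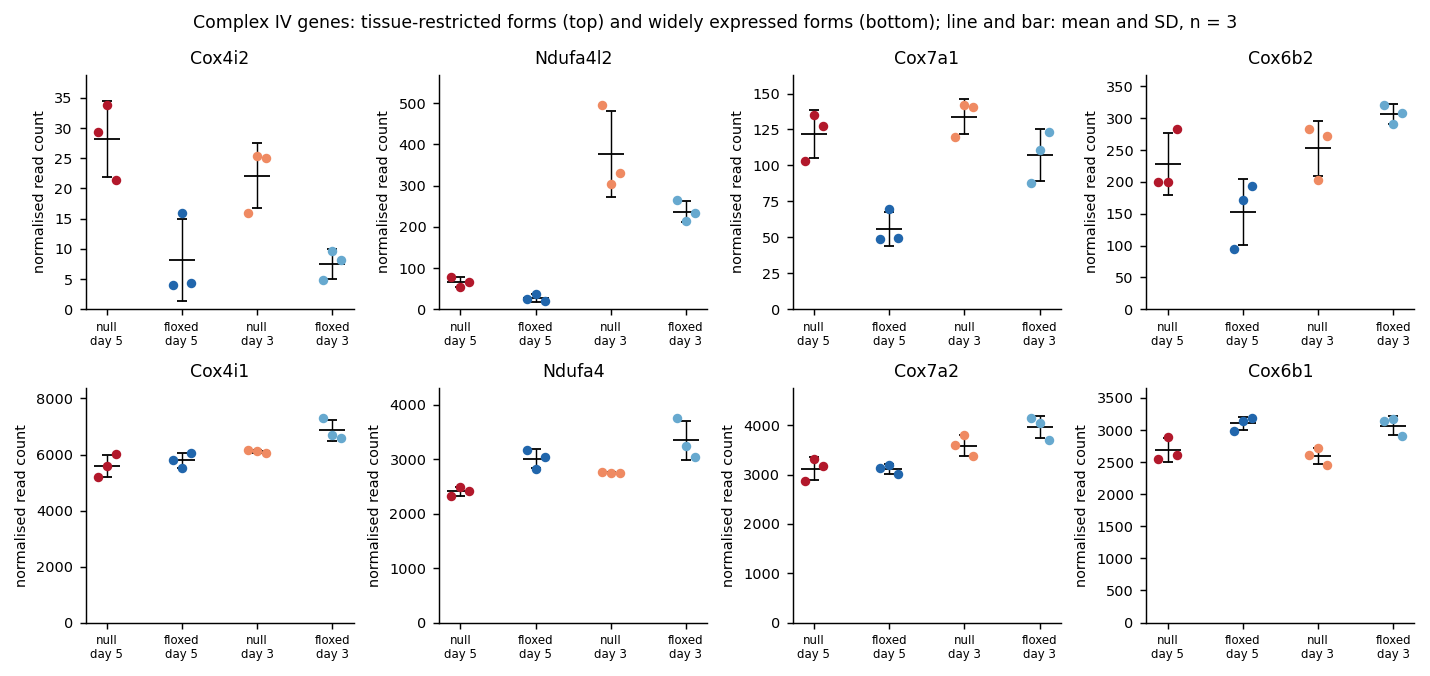
Normalised read counts per library of restricted isoforms (top) and of their widely expressed counterparts (bottom) in the 4 groups, with lines and bars for the mean and SD (n = 3). Cox4i2 and Ndufa4l2 are higher in every null library than in every floxed library of the same day, and no counterpart lies below 2329 in any library.

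Genes of glycolysis and the response to low oxygen also differed between the lines, and their part in the isoforms' difference was not tested. Of the 28 such genes tested, 18 were higher in the null line at day 5 and none was lower (median 0.51). At day 3, 9 were higher (median 0.35, or 5 higher without the second floxed day 3 library). Of all genes, 13.0% were higher at day 5 and 4.09% at day 3. Their summed value was 326933 to 346211 in null day 5 libraries, 243806 to 293026 in floxed day 5 libraries, 510279 to 642940 in null day 3 libraries and 476175 to 496786 in floxed day 3 libraries. Between the days 22 fell in the null line (median −0.84) and 24 in the floxed line (median −0.97), and none rose with all 12 libraries fitted. Of all genes, 21.9% fell in the null line and 19.2% in the floxed line. Of the 4 isoforms, only Ndufa4l2 was called lower over time in both lines. Adm, the vasoactive peptide adrenomedullin, had a log2 difference of 3.44 ± 0.27 between the lines at day 5 (adjusted p = 1.59e-05, limma), and Ndrg1, a gene induced by low oxygen, one of 1.85 ± 0.24 at day 3 (0.00145). Eno1, an enzyme of glycolysis, fell by 0.94 ± 0.08 in the null line and by 1.01 ± 0.08 in the floxed line.
Muscle and heart markers (7 tested of 9 in the table) summed to 1773 to 2117 in null day 5 libraries, 472 to 2003 in floxed day 5 libraries, 595 to 699 in null day 3 libraries and 493 to 652 in floxed day 3 libraries. At day 5, Des and Tnni3 were the 2 of 7 higher in the null line, chosen here after their values were seen, and none was lower, while Tnnt2 and Myl2 stayed below a value of 10. In the null line 4 markers rose and 2 fell between the days, and in the floxed line 2 rose and 3 fell. The shares over all genes were 22.6% rising and 21.9% falling in the null line, and 22.5% and 19.2% in the floxed line. At day 5 the null line also had 6 of 10 pluripotency, 5 of 15 germ layer, 1 of 10 extraembryonic endoderm and 1 of 12 feeder fibroblast markers lower, and none of these was higher. At day 3, 2 germ layer and 1 extraembryonic endoderm markers were lower and 1 feeder marker was higher. Between the lines, 13.0% of all genes were higher and 13.5% lower at day 5, and 4.09% and 2.03% at day 3.

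Chromosome 11, which carries 5 members and Kat2a, had far more genes higher than lower in the null line, and of the 5 members Uqcr10 and Ndufaf8 were called higher at day 5. Of its 1332 tested genes, 41.3% were called higher in the null line at day 5 and 2.63% lower, and 30.3% higher and 0.225% lower at day 3. The chromosome's median log2 difference was 0.33 at day 5 and 0.36 at day 3, against medians of −0.02 and −0.00 for all genes, and the median of the 5 members was 0.06 at day 5 and 0.18 at day 3. Uqcr10, a small subunit of complex III (chr11:4701973-4704342 in mm10, minus strand), had 1872, 2280.0 and 2323 in null day 5 libraries, against 1699.5, 1604 and 1849 in floxed day 5 libraries. Its day 3 values were 2488, 2836 and 2739.5 in null libraries, against 2228, 2227 and 1982 in floxed libraries. The null line was higher in every library of each day. Its log2 difference was 0.33 ± 0.09 at day 5 (adjusted p = 0.0232, limma) and 0.32 ± 0.09 at day 3 (0.0626, or 0.0385 with the replicate block and 0.0333 without the first null day 5 library). With the chromosome's median removed it was −0.04 at day 5 (0.801) and −0.06 at day 3 (0.749).
The day 5 call for Uqcr10 was also lost with the day 5 groups alone (0.0505) and without the first floxed (0.0617), second floxed (0.0772), second null (0.0853) or the third null day 5 library (0.0891). Ndufaf8, a complex I assembly factor (chr11:120098928-120100705, plus strand), had 289, 368 and 312 in null day 5 libraries, against 217, 240.5 and 240.1 in floxed day 5 libraries. At day 3 the values were 314, 409.7 and 411 in null libraries, against 267, 317 and 275 in floxed libraries. The lines were separate at day 5 and overlapped at day 3 (0.47 ± 0.14 at day 5, adjusted p = 0.0248, and 0.39 ± 0.14 at day 3, 0.112, limma, or 0.0353 with the replicate block). With the chromosome's median removed the day 5 difference was 0.11 (0.579), and the call was lost without the first floxed (0.0814), second null (0.102) or the third null day 5 library (0.0512).

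The other 3 members on this chromosome did not pass the test between the lines. Atp5h, subunit d of the ATP synthase stalk (chr11:115415689-115419962, minus strand), averaged 3286 ± 377 in null and 3143 ± 34.9 in floxed day 5 libraries, and 3551 ± 225 in null and 3123 ± 79.7 in floxed day 3 libraries (log2 difference 0.06 at day 5 and 0.18 at day 3, adjusted p = 0.644 and 0.2 by limma). Atp5g1, another gene for subunit c (chr11:96068852-96075670, minus strand), averaged 2798 ± 55.8 in null and 2979.9 ± 166 in floxed day 5 libraries, and 3556 ± 261 in null and 3297 ± 317 in floxed day 3 libraries (−0.09 and 0.11, adjusted p = 0.452 and 0.455, limma). Uqcrq, another small subunit of complex III (chr11:53427922-53430831, minus strand), averaged 1149 ± 71.6 in null and 1131 ± 48.2 in floxed day 5 libraries, and 1599 ± 134 in null and 1463 ± 166 in floxed day 3 libraries (0.02 and 0.13, adjusted p = 0.889 and 0.45, limma).
Relative to the median of their chromosome all 3 were lower at day 5, with −0.30 for Atp5h, −0.45 for Atp5g1 and −0.34 for Uqcrq (adjusted p = 0.00763, 0.00172 and 0.0177, limma), and at day 3 the values were −0.20, −0.27 and −0.25 without passing (0.127, 0.0792 and 0.148). Over time, Uqcrq fell in both lines, by 0.47 ± 0.10 in the null line and 0.37 ± 0.10 in the floxed line (0.00147 and 0.00796), and Atp5g1 fell by 0.34 ± 0.08 in the null line (0.00408), with −0.14 in the floxed line (0.178, but 0.0445 without the third floxed day 3 library). Uqcr10 fell by 0.32 ± 0.09 in each line (0.0145 in the null and 0.0152 in the floxed line). Those calls were lost in the null line without the second null day 3 or first null day 5 library (0.0572 and 0.0625), and in the floxed line without the first or second floxed day 3 library or the second floxed day 5 library (0.0598, 0.0565 and 0.0632). Atp5h and Ndufaf8 did not pass in either line by the 12-library fit.

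**Figure D5:**
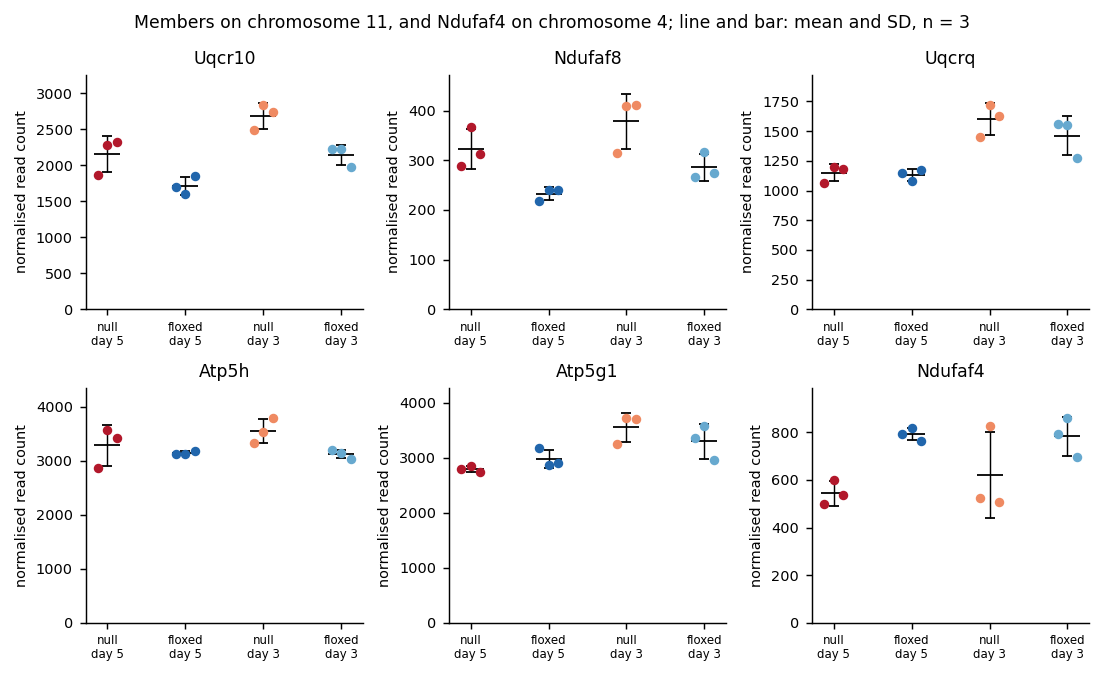
Normalised read counts in each library of the 4 groups for the 5 members on chromosome 11 and, for contrast, Ndufaf4 on chromosome 4, with lines and bars for the mean and SD (n = 3). Uqcr10 is higher in every null library than in every floxed library of the same day, and Ndufaf4 is lower in every null day 5 library than in every floxed day 5 library.

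Genes that supply, build or regulate the chain were read from lists outside the naming rule. Of 23 regulators of mitochondrial gene expression, 10 were lower and 1 higher in the null line at day 5, where 13.5% of all genes were lower and 13.0% higher. The list holds Kat2a, the deleted gene, as 1 of the 10, with a log2 difference of −1.43. The 10 became 5 without the first floxed, and 6 without the second or the third null, day 5 library. The 1 higher gene, Polg2, a subunit of the mitochondrial DNA polymerase, was lost without the first floxed or the third null day 5 library and with chromosome 11 left out or centred on its median. Myc, a known activator of nuclear genes for mitochondrial proteins, had a log2 difference of −1.76 ± 0.30 (adjusted p = 0.0014, limma), and Nrf1, whose letters were searched above, one of −0.31 ± 0.07 (0.00604). Gabpa, the DNA-binding part of GABP, had −0.23 ± 0.06 (0.0158, but 0.0667 without the first floxed and 0.0512 without the third null day 5 library), and 12.7% of the exons of the member Atp5j overlap it on the opposite strand. At day 3, where 4.09% of all genes were higher and 2.03% lower, the regulators had 1 higher and 1 lower gene. These were Polg2 (0.54 ± 0.14, adjusted p = 0.041, limma) and, lower, Kat2a itself (−1.68). With the median of chromosome 11 removed Polg2 had 0.15 (0.595), and its call was also lost with the day 3 groups alone (0.0597) and without the first or the third floxed day 3, the second floxed day 5, the second null day 5 or any null day 3 library. Myc at day 3 had −0.62 ± 0.30 (adjusted p = 0.24, limma, or 0.0225 with the replicate block).
Over time 9 regulators fell and 3 rose in the null line, and 4 fell and 4 rose in the floxed line (1 fell without the first floxed day 3 library, and 2 without the second floxed day 3, second floxed day 5 or the third floxed day 5 library). The shares over all genes were 21.9% falling and 22.6% rising in the null line, and 19.2% and 22.5% in the floxed line. Lrpprc, which stabilises mitochondrial mRNA, fell by 0.72 ± 0.08 in the null line and by 0.46 ± 0.08 in the floxed line (adjusted p = 1.75e-05 and 0.000442, limma). Ppargc1a, the coactivator PGC-1alpha, rose by 2.46 ± 0.31 in the null line (adjusted p = 5.46e-05, limma). Its values were low, with 7.33, 9.37 and 5.36 in null day 3 libraries against 53.1, 47.8 and 33.9 in null day 5 libraries. At such levels the size depends on the pseudocount. Floxed values of Ppargc1a were also higher at day 5 without overlap, with 36.6, 28.5 and 21.8 against 7.74, 9.65 and 9.98 at day 3. With all 12 libraries fitted, no regulator passed the interaction test.

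Of 14 genes of cytochrome c and coenzyme Q synthesis, 3 were higher and 3 lower in the null line at day 5, where 13.0% of all genes were higher and 13.5% lower. Cyct, the testis form of cytochrome c, had a log2 difference of 1.68 ± 0.14 at day 5 and 0.75 ± 0.14 at day 3 (adjusted p = 2.77e-05 and 0.00935, limma), while Cycs, the somatic form, had −0.43 ± 0.10 at day 5 (0.00764). Over time, 21.9% of all genes fell and 22.6% rose in the null line, and 19.2% fell and 22.5% rose in the floxed line. In the list of 14, 4 genes fell over time in each line, with 1 rising in the null and 2 in the floxed line. The rise in the null line was lost without the first or second null day 3 or the third null day 5 library, and the 2 rises in the floxed line became 1 or 0 without any one of its 6 libraries and 1 under upper-quartile scaling. Of 22 genes of pyruvate dehydrogenase and the citric acid cycle, 12 fell and 3 rose in the null line and 7 fell and 2 rose in the floxed line (1 with chromosome 11 left out), and 4 were higher and 2 lower in the null line at day 5. The 2 became 1 without any of 7 libraries, namely the first 2 of floxed day 3, the last 2 of floxed day 5, the first of null day 3 and the first 2 of null day 5, and likewise under upper-quartile or TMM scaling, with the day 5 groups alone and by edgeR. The 4 became 2 with chromosome 11 left out or centred. Idh3a, a subunit of isocitrate dehydrogenase, fell by 0.72 ± 0.07 in the null line and by 0.74 ± 0.07 in the floxed line (6.56e-06 and 4.27e-06). Pdk1, a kinase that switches pyruvate dehydrogenase off, was higher in the null line by 0.88 ± 0.11 at day 5 and 0.70 ± 0.11 at day 3 (0.000211 and 0.00306).
Of 42 assembly factors outside the naming rule, 8 were higher and 5 lower in the null line at day 5, 4 and 1 at day 3, and over time 6 rose and 8 fell in the null line and 3 rose and 5 fell in the floxed line. Of all genes, 13.0% were higher and 13.5% lower at day 5, and 4.09% and 2.03% at day 3. Over time 22.6% of all genes rose and 21.9% fell in the null line, and 22.5% and 19.2% in the floxed line. With chromosome 11 left out or centred on its median, the 4 higher at day 3 became 0 and the 8 at day 5 became 4, and with it centred the 5 lower became 8. Single libraries also moved most of these counts. At day 5 the 8 became 4 without the first floxed, 5 without the second null and 4 without the third null library, and the 5 became 2 without the third floxed, 2 without the first null and 3 without the second null library. At day 3 the 4 became 1 or 2 without the first or the third floxed or the second or the third null library, and the 1 became 0 without the first or second floxed or the first or the third null library. In the null line the 6 rises became 3 without the second day 5 library or with chromosome 11 left out, and the 8 falls became 3 with the null groups alone, 4 by edgeR and 3 or 4 without the second or the third day 3 or the first or second day 5 library. In the floxed line the 5 falls became 2 or 3 without the first or second day 3 or the second or the third day 5 library. Ttc19, a complex III assembly factor, had a log2 difference of 0.56 ± 0.07 at day 5 (adjusted p = 0.00032, limma), which was 0.20 (0.101) with the median of chromosome 11 removed. Ecsit, an assembly factor of complex I, had a log2 difference of −0.48 ± 0.10 between the lines at day 5 (0.0058) and fell over time in the null line by 0.90 ± 0.10 (3.02e-05).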

How the data were processed

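Total RNA of 12 embryoid body libraries was sequenced after a stranded library preparation, per the labels' protocols. The values are signal: normalised read counts per gene that the authors made by dividing counts by DESeq size factors and deposited as 1 table (CASAVA 1.8.2, TopHat2 2.0.10, HTSeq 0.6.0 and DESeq 1.16.0 with mm10, per the submitters' processing notes). Whether counting used strand is not given in the sources used here. Whole reads could be recovered from 100% of nonzero values (tolerance 0.01 read) and served the edgeR alternative and the read totals. Read totals are given in the report.

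The values of 1 member are not reported here, in the text or in the plot of deviations by member, though every count includes it. Of 18269 identifiers, 18199 matched GENCODE M21 with versions dropped (the same version for 58 of 91 members) and 70 did not. Tests were run with limma 3.58.1 (R 4.3.3), on values plus 1 in log2, over all 12 samples with 4 group means. A gene entered when its mean reached 10 in any group, which held for 17000 genes and failed for 1269. Tests were two-sided, with Benjamini-Hochberg adjustment over all genes tested, and a gene was called at an adjusted p under 0.05. The 21 alternatives were a pseudocount of 10, no filter, upper-quartile and TMM rescaling, a replicate block, the contrast's groups alone, chromosome 11 left out or centred on its median, edgeR 4.0.16 quasi-likelihood on recovered reads, and leaving out each of the 12 libraries. On simulated data with 200 changed genes, the limma test recovered 6% to 10% of 1.25-fold changes, depending on the comparison. It recovered 50% to 62% of 1.5-fold and 82% to 90% of 2-fold changes. The simulations changed 200 of 16509 to 16532 genes, whereas 1041 to 7571 of 17000 genes were called in the real comparisons they imitate. With fewer changed genes the adjusted threshold is stricter, so the recovered shares do not give the recovery in the real fits. A member that did not pass may still differ by a small amount.

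The main fit used no pairs, and the replicate block was only an alternative. The block was 1 factor over all 12 libraries. For that block, the libraries' numbers were taken as pairs where every same-numbered pair of libraries deviated together (r over 0.1). The correlations were 0.270 to 0.372 between the lines at day 3, 0.247 to 0.424 at day 5 and 0.123 to 0.282 between the days of the null line, but 0.0814 to 0.214 between the days of the floxed line, which was not taken as paired. Members, roles and lists were chosen with earlier results of these data known. Named members were, per comparison, up to 8 called each way by size of change whose higher group averaged 50 or more, all members on chromosome 11, the Sdh genes, Cyc1, the isoform pairs, the highest member per length in each complex and, from each other list, up to 3 called genes with the smallest p, of which only some are given. Marker lists are given by counts and sums. Nrf1 and Gabpa were added because their motifs were searched. Near-identical copies were sought with blastn 2.17.0, and 21 of 91 members had at least 1. Of these, Ndufs5 had 1 in the table at 35.5% of its level. Uqcr10, Atp5h, Atp5g1, Ndufb4 and Cox7c had copies in the table at 1.91% or less. The 1 copy of Cox5b was not in the table, so its level is not known. Promoter windows are RefSeq's (GRCm38.p6).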

Additional observations from a re-analysis of the deposited data

Results flagged for a closer look

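The genotype difference of Pdk4, a kinase that inhibits pyruvate dehydrogenase, differed between the days. It averaged 202 ± 64.3 normalised reads in null day 5 libraries and 43.3 ± 2.76 in floxed day 5 libraries, and 80.9 ± 18.6 in null day 3 libraries and 65.6 ± 8.33 in floxed day 3 libraries (SD, n = 3 each). The log2 difference was 2.15 at day 5 and 0.28 at day 3, and the interaction was 1.87 ± 0.34 (adjusted p = 0.0353, limma). The call was lost without any of 10 of the 12 libraries, all but the third floxed day 3 and the second floxed day 5 library, with adjusted p of 0.0569 to 0.0989.

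For Sox2, a pluripotency factor, the difference also depended on the day. It averaged 1992 ± 68.4 in null day 5 libraries and 3369 ± 221 in floxed day 5 libraries, and 2095 ± 134 in null day 3 libraries and 2292 ± 144 in floxed day 3 libraries (SD, n = 3 each). The log2 difference was −0.76 at day 5 and −0.13 at day 3, with an interaction of −0.63 ± 0.11 (adjusted p = 0.0345, limma). That call was lost without any of 9 of the 12 libraries, all but the third floxed day 3, the second floxed day 5 and the third null day 3 library, with adjusted p of 0.0532 to 0.0865.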

How the results depend on the processing

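Of 3619 recomputed gene values, over the 21 alternatives, 3434 kept their direction and side of the threshold, 127 lost a call, 25 gained one and 33 changed sign. The causes of these changes were not tested. The tally leaves out some near-zero contrasts of genes named for another contrast, and most interactions. It is therefore not a share over all results. With the replicate block, 3 members were higher and 6 lower in the null line at day 3, and in the floxed line 1 member, Sdhc, was higher at day 5 (adjusted p = 0.0346, limma) and Ndufaf8 was lower (0.0369), though the block's numbers were not taken as pairs there. Lower members at day 3 numbered 2 with a pseudocount of 10, 3 under upper-quartile rescaling and 0 with chromosome 11 left out or centred. Lower members at day 5 numbered 7 under upper-quartile rescaling and 6 with its groups alone, and 1 member was higher at day 5 in the null line by edgeR and in the floxed line with its groups alone. Leaving out single libraries gave 0 to 1 higher and 0 to 4 lower members at day 3 between the lines, 6 to 10 higher and 3 to 11 lower at day 5, and 0 to 1 higher between the days in each line.

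Centring chromosome 11 turned the day 3 difference between the lines to −0.27 for Atp5g1, −0.20 for Atp5h, −0.061 for Uqcr10, −0.25 for Uqcrq and −0.0073 for Ttc19. At day 5 it turned that of Uqcr10 to −0.036, of Atp5h to −0.30 and of Uqcrq to −0.34, and between the floxed days it gave −0.049 for Atp5h and a lower call for Ndufaf8 (−0.36, adjusted p = 0.037, limma). Upper-quartile rescaling gave 0.0021 for Sdha at day 5, and −0.0060 for Cox6b1 and −0.014 for Atp5h between the floxed days, and called Cox6b1 at day 3 (adjusted p = 0.0498, limma). For Cox4i2 edgeR gave 0.10 between the floxed days.

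Without single libraries, day 3 differences between the lines ranged from −0.014 to 0.032 for Sdha, −0.12 to 0.018 for Sdhb and −0.12 to 0.00073 for Cyc1. Day 5 differences ranged from −0.10 to 0.0015 for Cox4i1, −0.046 to 0.061 for Cox7a2, −0.0056 to 0.15 for Atp5h and −0.012 to 0.075 for Uqcrq. Between the null days the range was −0.0062 to 0.084 for Cox6b1, and between the floxed days −0.68 to 0.20 for Cox4i2, −0.024 to 0.044 for Cox6b1 and −0.011 to 0.026 for Atp5h. None of these values was called.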
